A study of Rattus norvegicus with 12 samples.

Results

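Antioxidant enzymes and targets of the transcription factor NRF2 were followed by RNA-seq in rat left ventricle (LV) after myocardial infarction (MI). The 10 genes, Sod1, Sod2, Sod3, Cat, Gpx1, Gclc, Gclm, Txnrd1, Nqo1 and Srxn1, were taken by symbol because the treatment supplies oxygen. Of these, 9 had a row among the 34599 genes of the count table, and these 9 were among the 15101 genes with enough counts to be tested. Srxn1, which encodes sulfiredoxin, had no row under its symbol or its RefSeq synonyms and was not analysed here.

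LV tissue had been taken 1 day after surgery from 12 male Sprague-Dawley rats, with 4 rats per group (Sham, MI and iCarP+/Light+, here also called treated). Sham rats had their chest opened without ligation of the coronary artery. MI rats had the left anterior descending coronary artery ligated and received no patch. The iCarP+/Light+ rats had the same ligation, an injection of Chlorella vulgaris, a green alga that releases oxygen in light, into the infarcted LV, and an optical-fiber patch glued to the heart with an adhesive gel and lit with red light. The treated group is thus set apart from the MI group by alga, patch, adhesive and light together, and the parts of the treatment cannot be told apart here. The iCarP+/Light- condition was not analysed here, and the study's methods give an age of 6 weeks for male rats where they describe illumination in live animals but repeat no age where they describe the infarct model.

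Ischemia and the return of oxygen both raise the production of reactive oxygen species in heart muscle. Superoxide dismutases turn superoxide into hydrogen peroxide, which catalase and glutathione peroxidases then remove, and glutathione and thioredoxin are kept reduced with electrons from NADPH. NRF2, encoded by Nfe2l2, is held in the cytoplasm and marked for destruction by KEAP1. When KEAP1 is modified by oxidants, NRF2 enters the nucleus, pairs with a small MAF protein and binds antioxidant response elements, short DNA motifs at genes such as Nqo1, Gclm, Txnrd1 and Srxn1, whereas BACH1 competes for the same elements.

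Promoter sequences were examined because several of these genes are textbook NRF2 targets. RefSeq windows on the GRCr8 assembly, from 250 bases before to 50 bases after a start site, were given for 9 of the 10 genes, with 2 start sites for Txnrd1 and no entry for Sod3. The core of the antioxidant response element was searched on both strands as TGACNNNGC and TGAGNNNGC. These motifs differ in a fixed letter and so cannot match the same letters on the same strand. Either can overlap the AP-1 motif TGAGTCA, the first through its reverse complement TGACTCA. Of the 10 windows, 5 held a match, in Gclm, Txnrd1, Srxn1, Sod2 and Gpx1, while 27.1% of the 33469 rat promoter windows of this length held one. Taken alone, the motifs were found in 12.1% (TGACNNNGC) and 17.2% (TGAGNNNGC) of all windows. No match was found in the windows of Nqo1, Gclc, Sod1, Cat and the first start site of Txnrd1, which says only that these letters are absent from these windows. The 200 bases before the start site are given here, 5′ to 3′ along the gene, for the 3 genes that were higher in treated than in MI rats and for Gclm, with matches in capitals.
Sod2, chr1:50050169-50050368, GRCr8, minus strand: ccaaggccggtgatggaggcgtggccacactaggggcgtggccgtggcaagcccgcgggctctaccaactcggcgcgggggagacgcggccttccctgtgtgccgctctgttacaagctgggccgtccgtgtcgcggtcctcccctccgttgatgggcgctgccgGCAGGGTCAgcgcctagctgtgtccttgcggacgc
Nqo1, chr19:52220268-52220467, GRCr8, minus strand: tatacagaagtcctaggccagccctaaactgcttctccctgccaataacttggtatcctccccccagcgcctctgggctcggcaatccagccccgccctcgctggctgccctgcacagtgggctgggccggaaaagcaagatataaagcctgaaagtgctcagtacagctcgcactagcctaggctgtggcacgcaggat
Txnrd1, second start site, chr7:22755905-22756104, GRCr8, minus strand: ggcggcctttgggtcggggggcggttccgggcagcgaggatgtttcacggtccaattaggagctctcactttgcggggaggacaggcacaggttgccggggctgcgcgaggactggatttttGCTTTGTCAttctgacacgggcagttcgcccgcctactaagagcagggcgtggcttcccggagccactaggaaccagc
Gclm, chr2:213031935-213032134, GRCr8, plus strand: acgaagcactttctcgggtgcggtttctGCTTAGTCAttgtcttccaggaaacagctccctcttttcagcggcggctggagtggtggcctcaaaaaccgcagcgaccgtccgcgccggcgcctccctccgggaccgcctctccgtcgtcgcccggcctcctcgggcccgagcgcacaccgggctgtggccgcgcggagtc
Each of the 3 matches lies on the opposite strand of its gene, so it appears here as its reverse complement. The first base of the match was 35 bases before the start site in Sod2 (GCAGGGTCA), 78 in Txnrd1 (GCTTTGTCA) and 172 in Gclm (GCTTAGTCA). A match is a string of letters and not a measured binding site.

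The libraries held 14064414 to 17136958 counted reads each. Mitochondrial genes took 22.8% to 28.9% of the counts in Sham rats, 8.52% to 11.5% in MI rats and 7.14% to 14.2% in treated rats, so levels are given in CPM, counts relative to a library size scaled by edgeR's TMM method to allow for such shifts in composition. Cardiomyocyte markers, 8 genes such as Myh6 and Tnnt2, summed to 46940 to 51980 CPM in Sham rats, 2887 to 5919 in MI rats and 2342 to 7035 in treated rats. In bulk tissue, fewer cells of a type and less RNA per cell cannot be told apart. All p-values below marked as adjusted by edgeR are from its quasi-likelihood test with Benjamini-Hochberg adjustment over 15101 genes, called at 0.05, and log2 fold changes are given ± the standard error (SE).

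The first comparison asked how an infarct changed the antioxidant genes. After MI, 2 of the 9 genes rose, Gclc and Txnrd1, 6 fell, Sod1, Sod2, Sod3, Cat, Gpx1 and Gclm, and Nqo1 did not pass the test. Of all genes tested, 63.8% passed, 30.2% higher and 33.6% lower in MI. The median log2 fold change was -0.60 over the 9 genes and -0.06 over all genes. Under total counts alone 5 of the 9 genes passed, and the falls of Sod2 (-0.03), Gclm (-0.04) and Gpx1 (0.05) were lost. The second comparison asked how treated infarcts differed from untreated ones. In iCarP+/Light+ rats, Sod2, Nqo1 and Txnrd1 were higher than in MI rats, none of the 9 was lower in edgeR's test (0 at an unadjusted p below 0.05, and 0 with DESeq2 or limma-voom, but 1, Gpx1, under total counts alone), and 6 did not pass, against 13.6% of all genes passing, 11.6% higher and 2.01% lower. The median log2 fold change was 0.05 over the 9 genes and 0.01 over all genes. Against Sham, 4 genes were higher in treated rats, Sod2, Nqo1, Txnrd1 and Gclc, and 5 were lower, Sod1, Sod3, Cat, Gpx1 and Gclm, where 66.5% of all genes passed, 33.5% higher and 33.0% lower. These comparisons share samples, the MI rats in the first and second, so their values are set side by side and not correlated.

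**Figure D1:**
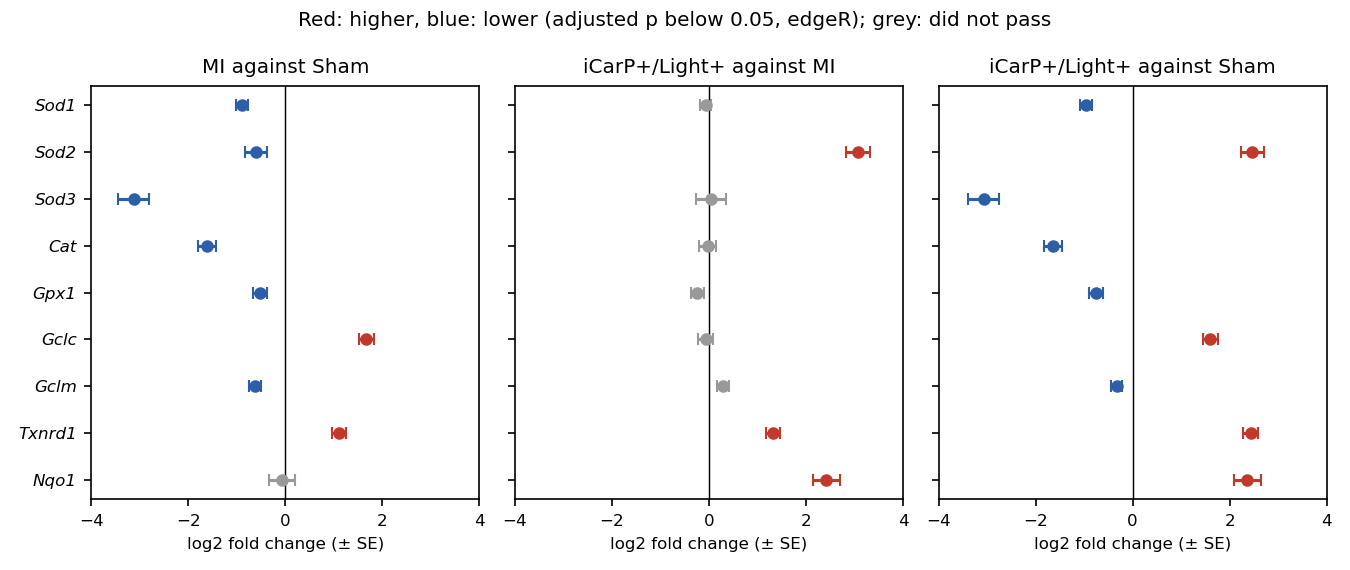
Log2 fold change of each gene with its SE (horizontal bars, edgeR fit of 12 rats) in MI against Sham, iCarP+/Light+ against MI, and iCarP+/Light+ against Sham. Red and blue points passed at an adjusted p of 0.05, and grey points did not. The 3 red points of the middle panel are Sod2 at 3.07, Nqo1 at 2.42 and Txnrd1 at 1.32. When libraries were scaled by total counts alone, the falls of Sod2 (-0.03), Gclm (-0.04) and Gpx1 (0.05) in the left panel did not pass. Gpx1 and the grey point of Nqo1 (0.51) changed sign there.

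Sod2 encodes the manganese superoxide dismutase of the mitochondrial matrix. Its level was 475, 507, 513 and 499 CPM in Sham rats 1, 2, 3 and 5, 306, 345, 428 and 238 CPM in MI rats 1, 3, 4 and 5, and 1577, 2671, 3172 and 3613 CPM in treated rats 1, 2, 4 and 5. Under TMM the 3 groups did not overlap, MI was lowest, and every treated rat lay above every other rat. In CPM of total counts, MI rats (301 to 492) overlapped Sham rats (386 to 434), and treated rats stayed above both. Sod2 was 8.37-fold higher in treated than in MI rats (log2 fold change 3.07 ± 0.25 SE, edgeR adjusted p = 6.07e-06). It was 5.53-fold higher than in Sham (2.47 ± 0.24 SE, edgeR adjusted p = 1.49e-06). In treated rats 0.165% to 0.347% of all counted reads came from this gene, against 0.0301% to 0.0492% in MI rats.

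The fall of Sod2 after MI was small beside this difference, with a log2 fold change of -0.60 ± 0.23 SE (edgeR adjusted p = 0.0362). That call was close to the threshold and depended on scaling. It was lost when MI rat 1, 3 or 5, any Sham rat or iCarP+/Light+ rat 5 was left out (edgeR adjusted p up to 0.105), although the log2 fold change in those fits was -0.62 to -0.46, and it was -0.03 under total counts alone (edgeR adjusted p = 0.914). On the count table's coordinates, which the submitters' processing notes give as rn6, Sod2 lies on chr1:47914759-47921587 on the minus strand.

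Sod1 encodes the copper-zinc dismutase of the cytosol. Its level was 185 to 223 CPM in Sham rats, 92.3 to 137 CPM in MI rats and a mean of 105 ± 3.96 CPM (SD, n = 4) in treated rats. Under TMM, MI did not overlap with Sham, and treated rats lay within the range of MI rats. Sod1 fell after MI (log2 fold change -0.89 ± 0.12 SE, edgeR adjusted p = 3.74e-05), and its difference between iCarP+/Light+ and MI was -0.07 ± 0.12 SE (edgeR adjusted p = 0.79). Under total counts alone the fall after MI was smaller, at -0.32 (edgeR adjusted p = 0.0311), and did not pass in the exact permutation test (unadjusted p = 0.0857). Under the same scaling the difference between iCarP+/Light+ and MI was -0.32 in mean log2 CPM with an unadjusted exact permutation p of 0.0286, while edgeR gave -0.33 (edgeR adjusted p = 0.0612). Ccs, the copper chaperone that loads SOD1, was the 1 gene of the wider pathway list that was lower in treated than in MI rats, by a log2 fold change of -0.44. It was singled out after its value was seen, and did not pass in several fits with a rat left out.

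Sod3, the secreted extracellular dismutase, had the largest fall of the 9 genes after MI. Its level was 116, 102, 113 and 112 CPM in Sham rats, 11.0, 13.6, 13.1 and 13.2 CPM in MI rats and 14.9, 22.2, 10.7 and 4.78 CPM in treated rats. The Sham rats stood far above all others, and the treated rats spread widely on either side of the MI rats. Sod3 was 8.70-fold lower in MI than in Sham (log2 fold change -3.12 ± 0.32 SE, edgeR adjusted p = 2.99e-06). Between iCarP+/Light+ and MI the difference was 0.05 ± 0.31 SE (edgeR adjusted p = 0.939), and its sign changed with the processing. Fibroblast markers, 6 genes such as Col1a1 and Dcn, summed to 8420 to 10560 CPM in Sham rats, 2409 to 2789 CPM in MI rats and 1253 to 2814 CPM in treated rats, and 5 of the 6 were lower in MI than in Sham. The part of the fibroblast and cardiomyocyte markers in the falls of Sod3 and of the other genes that were lower after MI was not tested.

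The ratio of Sod2 to Sod1 counts was formed within each rat, since the scaling between libraries cancels out of it. It was 2.13, 2.32, 2.77 and 2.62 in Sham rats, 3.32, 3.29, 3.12 and 2.23 in MI rats and 15.8, 24.4, 29.9 and 34.2 in treated rats. Sham and MI rats overlapped, while every treated rat was far above them. On the log2 scale the mean was 1.29 ± 0.17 (SD, n = 4) in Sham rats, 1.56 ± 0.27 (SD, n = 4) in MI rats and 4.65 ± 0.49 (SD, n = 4) in treated rats. The difference of 3.08 between iCarP+/Light+ and MI had p = 0.0286 in a two-sided exact permutation test, the smallest that 4 against 4 rats can give, and 0.0322 after adjustment over 9 ratio comparisons. The difference of 0.27 between MI and Sham had an exact permutation p = 0.143, also 0.143 after adjustment.

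Cat encodes catalase, which splits hydrogen peroxide and resides in peroxisomes. Its level was 247, 260, 250 and 252 CPM in Sham rats, 74.7, 96.3, 65.8 and 94.1 CPM in MI rats and 96.5, 101, 64.6 and 62.3 CPM in treated rats. Both infarct groups lay well below Sham and overlapped each other. Cat was 3.05-fold lower in MI than in Sham (log2 fold change -1.61 ± 0.18 SE, edgeR adjusted p = 4.84e-06; -1.02 under total counts alone), and the difference between iCarP+/Light+ and MI was -0.03 ± 0.17 SE (edgeR adjusted p = 0.943).

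Gpx1, the cytosolic glutathione peroxidase, ranged from 1061 to 1464 CPM in Sham rats, 727 to 1066 CPM in MI rats and 649 to 793 CPM in treated rats. The highest MI rat reached the lowest Sham rat, so these groups overlapped, whereas treated rats lay below all Sham rats. Its log2 fold change was -0.52 ± 0.14 SE after MI (edgeR adjusted p = 0.00637), but the exact permutation test gave p = 0.0571 (0.0771 adjusted over 27 gene comparisons), and the value was 0.05 under total counts alone. Between iCarP+/Light+ and MI it was -0.24 ± 0.14 SE (edgeR adjusted p = 0.34), which under total counts alone became -0.50 (edgeR adjusted p = 0.0256).

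**Figure D2:**
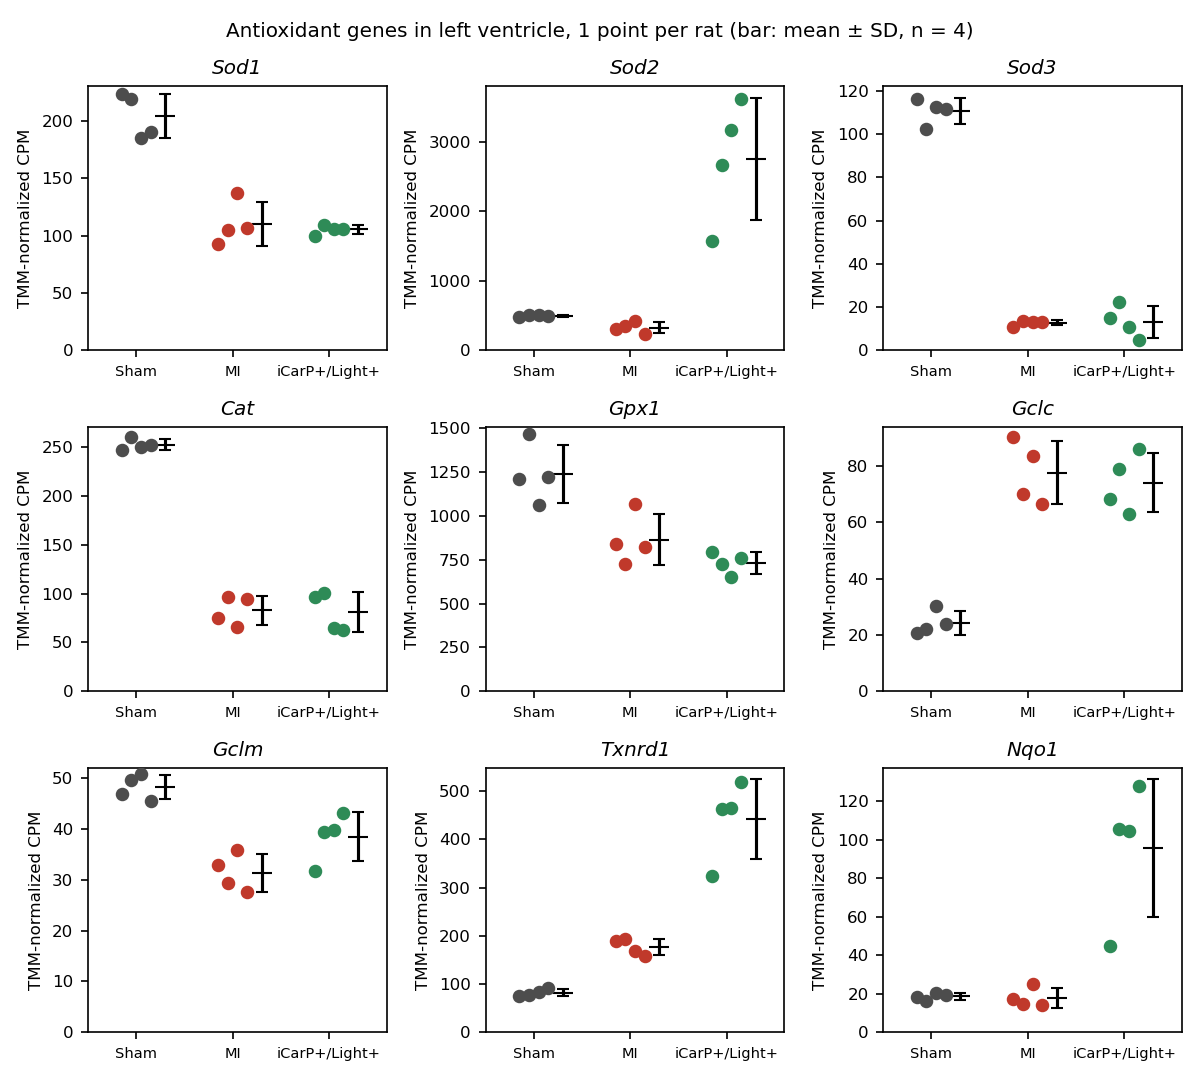
TMM-normalized CPM of the 9 genes, 1 point per rat, by group, with the mean and SD (n = 4) as a bar at the right of each group and axes starting at 0. Treated rats stand above all other rats for Sod2 (1577 to 3613 CPM), Txnrd1 (324 to 518 CPM) and Nqo1 (44.7 to 128 CPM), while both infarct groups lie below Sham for Sod1, Sod3 and Cat.

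Glutathione is made in a first, rate-limiting step by glutamate-cysteine ligase, whose catalytic subunit is encoded by Gclc and whose modifier subunit is encoded by Gclm. Under TMM scaling the subunits moved in opposite directions after MI. Gclc was 20.9, 22.2, 30.4 and 24.0 CPM in Sham rats, 90.3, 70.1, 83.5 and 66.5 CPM in MI rats and 68.1, 79.0, 62.9 and 86.1 CPM in treated rats. Under TMM both infarct groups lay above Sham and overlapped each other. Gclc rose 3.18-fold after MI (log2 fold change 1.67 ± 0.15 SE, edgeR adjusted p = 1.07e-06), and the difference between iCarP+/Light+ and MI was -0.07 ± 0.15 SE (edgeR adjusted p = 0.82). Under total counts alone that difference was -0.34 in edgeR (edgeR adjusted p = 0.0693) and -0.33 in mean log2 CPM, with an unadjusted exact permutation p of 0.0286.

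Gclm was 45.5 to 50.7 CPM in Sham rats, 27.5 to 35.9 CPM in MI rats and 31.6, 39.3, 39.7 and 43.1 CPM in treated rats. Under TMM every MI rat lay below every Sham rat, and 3 of 4 treated rats lay between the other groups. The fall after MI was -0.62 ± 0.12 SE on the log2 scale (edgeR adjusted p = 0.00045), but -0.04 under total counts alone (edgeR adjusted p = 0.736). Between iCarP+/Light+ and MI the difference was 0.29 ± 0.12 SE (edgeR adjusted p = 0.128), and it passed when iCarP+/Light+ rat 1 was left out (0.37, edgeR adjusted p = 0.0348). The ratio of Gclm to Gclc counts, free of the scaling, was 1.67 to 2.25 in Sham rats, 0.363 to 0.429 in MI rats and 0.464 to 0.631 in treated rats. The 3 groups did not overlap, with log2 means of 1.00 ± 0.21 in Sham rats, -1.30 ± 0.11 in MI and -0.94 ± 0.19 in treated rats (SD, n = 4). Each of the 3 differences had p = 0.0286 in the exact permutation test (0.0322 adjusted). That between iCarP+/Light+ and MI, 0.36 on the log2 scale, had an exact permutation p of 0.0571 without MI rat 1, 3 or 5, while its value stayed at 0.31 to 0.37 in those cases.

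Txnrd1 encodes the cytosolic thioredoxin reductase, a selenoenzyme that returns thioredoxin to its reduced form. Its level was 75.2, 77.8, 84.3 and 91.2 CPM in Sham rats, 189, 193, 168 and 159 CPM in MI rats and 324, 463, 464 and 518 CPM in treated rats. The 3 groups were separate and in this order. Txnrd1 rose 2.16-fold after MI (log2 fold change 1.11 ± 0.14 SE, edgeR adjusted p = 1.88e-05; 1.69 under total counts alone) and was a further 2.50-fold higher in treated than in MI rats (1.32 ± 0.14 SE, edgeR adjusted p = 5.28e-05). Each of these calls held in all 12 fits with a rat left out. Its mitochondrial counterpart Txnrd2 fell after MI, with a log2 fold change of -1.42, and was -0.21 between iCarP+/Light+ and MI, which did not pass. Txnrd2 was named after its values were seen.

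Nqo1 encodes a quinone reductase that uses NADPH or NADH and is a standard readout of NRF2 activity. It was 18.6, 16.5, 20.3 and 19.1 CPM in Sham rats, 17.3, 14.9, 25.0 and 14.2 CPM in MI rats and 44.7, 105, 104 and 128 CPM in treated rats. Under TMM, Sham and MI rats overlapped, while treated rats lay above both, with rat 1 lowest. The log2 fold change of Nqo1 was -0.06 ± 0.27 SE after MI (edgeR adjusted p = 0.849), and this value was 0.51 under total counts alone (edgeR adjusted p = 0.0842). In CPM of total counts, Sham (14.12 to 15.95) and MI rats (17.92 to 28.73) did not overlap. The difference in mean log2 CPM was then 0.48, with an unadjusted exact permutation p of 0.0286. Nqo1 was 5.36-fold higher in treated than in MI rats (2.42 ± 0.28 SE, edgeR adjusted p = 7.81e-05) and 5.12-fold higher than in Sham (2.36 ± 0.28 SE, edgeR adjusted p = 7.8e-06). On rn6 it lies on chr19:38422164-38437180 on the plus strand.

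The ratio of Txnrd1 to Cat counts, an NRF2 target against a peroxisomal enzyme, was 0.299 to 0.362 in Sham rats, 1.69 to 2.55 in MI rats and 3.36 to 8.31 in treated rats. The 3 groups did not overlap, and each difference had p = 0.0286 in the exact permutation test (0.0322 adjusted). The log2 difference was 2.73 between MI and Sham and 1.35 between iCarP+/Light+ and MI. The latter had an exact permutation p of 0.0571 when any 1 MI rat was left out, while its value stayed at 1.23 to 1.43.

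**Figure D3:**
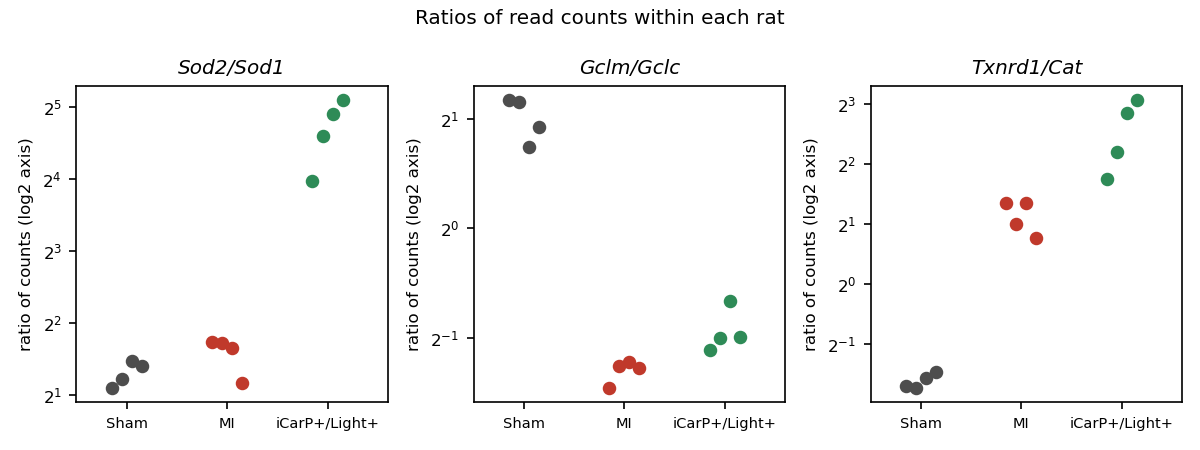
Ratios of read counts within each rat, 1 point per rat, on log2 axes, for Sod2 to Sod1, Gclm to Gclc and Txnrd1 to Cat. Treated rats reach 15.8 to 34.2 for Sod2 to Sod1, against 2.13 to 3.32 in the other 8 rats, and Gclm to Gclc is above 1 in Sham and below 1 in both infarct groups.

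Levels of different genes were compared per length, as TMM-scaled CPM divided by the length of the gene model in kilobases (RPKM). In Sham rats the mean level ran from Gpx1 at 1418 RPKM through Sod1 at 311, Sod2 at 242, Cat at 99.3, Sod3 at 64.1, Gclm at 32.4, Txnrd1 at 23.9 and Nqo1 at 11.8 to Gclc at 8.01 RPKM, and the ranges of neighbours in this order did not overlap. In MI rats Gpx1 led at 988 RPKM, followed by Sod1 at 168 and Sod2 at 160, whose ranges overlapped. Txnrd1 at 51.6 RPKM stood above Cat at 32.6, Gclc at 25.5 and Gclm at 21.1, among which neighbours overlapped, with Nqo1 at 11.3 and Sod3 at 7.36 RPKM last. In iCarP+/Light+ rats Sod2 came first at 1337 RPKM, but its range of 765 to 1751 overlapped that of Gpx1, at a mean of 839 RPKM. Sod1 at 160 and Txnrd1 at 129 RPKM followed without overlap, then Nqo1 at 60.5, Cat at 31.9, Gclm at 25.9 and Gclc at 24.3 RPKM, each overlapping the next, and Sod3 at 7.62 RPKM below them.

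The directions above rest on TMM scaling, and the median of all genes shows how far another scaling moves them. Under total counts alone that median went from -0.06 to 0.52 in MI against Sham, from 0.01 to -0.25 in iCarP+/Light+ against MI and from 0.02 to 0.33 in iCarP+/Light+ against Sham (log2). The share of passing genes that were higher went from 47.3% to 73.5%, from 85.2% to 30.7% and from 50.3% to 64.7%. Another scaling shifts all genes by nearly the same amount, so a gene's distance from that median is nearly fixed by construction and is given only as a description. In MI against Sham, Sod2 was -0.54 under TMM and -0.55 under total counts, Gpx1 was -0.46 and -0.47, and Gclm was -0.56 under both. In iCarP+/Light+ against MI, Sod2 stood 3.06 above the median under TMM and 3.05 under total counts, and Nqo1 stood 2.41 and 2.40 above it.

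Neutrophil markers rose in both comparisons, whereas macrophage markers overlapped between MI and treated rats. The neutrophil list, 8 genes including S100a8, S100a9, Csf3r and Mmp9, summed to 7.80 to 12.3 CPM in Sham and 354 to 658 CPM in MI rats. In iCarP+/Light+ rats they summed to 2645, 6197, 4927 and 7876 CPM in rats 1, 2, 4 and 5. The 7 tested markers were higher in MI than in Sham and in treated than in MI, and Ngp had too few counts to test. Rat 1, the lowest treated rat for this sum, was also the lowest of the 4 for Sod2, Nqo1 and Txnrd1. Rat 4 had a lower sum than rat 2, a higher Sod2 level (3172 against 2671 CPM) and nearly the same Nqo1 and Txnrd1. The sum also rose after MI, to levels below every treated rat. In that comparison Txnrd1 was higher, Sod2 was lower under TMM (-0.03 under total counts alone, which did not pass) and Nqo1 did not pass (0.51 under total counts alone). Macrophage markers, 8 genes such as Cd68 and Lyz2, summed to 394 to 620 CPM in Sham rats, 3924 to 6833 CPM in MI rats and 3013 to 4885 CPM in treated rats, with 1 marker higher (Adgre1) and 1 lower (Mrc1) in treated than in MI. No marker of either list was at 0 in all rats of a group. Red blood cell markers, 6 genes such as Hbb and Alas2, summed to 7858 to 10560, 2501 to 6922 and 6177 to 17450 CPM in Sham, MI and treated rats, in that order, and 4 of the 6 were higher in treated than in MI. Endothelial markers, 5 of 6 listed genes with a row, summed to 1291 to 1421, 540 to 859 and 718 to 859 CPM in the same order. The part of leukocyte or red cell RNA in the differences of Sod2, Nqo1 and Txnrd1 was not tested.

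**Figure D4:**
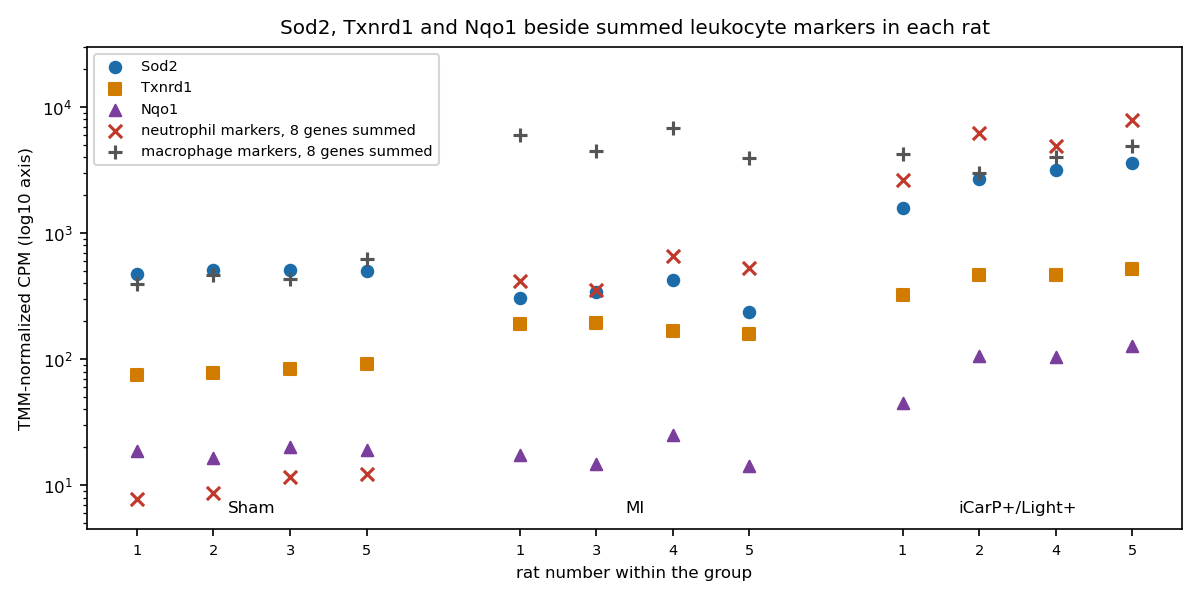
Sod2, Txnrd1 and Nqo1 in each of the 12 rats beside the summed neutrophil and macrophage markers, in TMM-normalized CPM on a log10 axis, with rat numbers within each group on the horizontal axis. The neutrophil sum rises from 7.80 to 12.3 CPM in Sham to 2645 to 7876 CPM in treated rats, where rat 1 is lowest for this sum and for all 3 genes, while the macrophage sums of MI and iCarP+/Light+ rats overlap.

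A wider list of 61 antioxidant and NRF2-pathway genes, grouped by role, set the 9 genes in their pathway. Of these 57 were tested, since Pgd had no row and Gpx4, Fth1 and Cbr1 had too few counts. Fth1 was listed at 0 in all 12 rats and Gpx4 at 0 to 7 counts, although both are widely expressed, so the table cannot be read as saying that they were not expressed. After MI 19 of the 57 genes were higher and 22 lower, with a median log2 fold change of 0.03, where 30.2% and 33.6% of all genes tested were higher and lower, shares close to those of the list. Under total counts alone 29 were higher and 16 lower, beside 7707 higher and 2776 lower of the 15101 genes. In iCarP+/Light+ against MI 19 were higher, 1 was lower and 37 did not pass, with a median of 0.25 beside 0.01 over all genes, of which 11.6% were higher and 2.01% lower. Under total counts alone 13 were higher and 9 lower there, beside 1204 higher and 2722 lower of all genes, and without iCarP+/Light+ rat 5, 12 were higher and 1 lower. In iCarP+/Light+ against Sham 24 were higher and 24 lower, with a median of 0.03, where 33.5% and 33.0% of all genes were higher and lower. The counts by role that follow are of few genes each and stand beside the same shares of all genes.

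Among 8 regulators, 3 were higher and 2 lower after MI, and 6 were higher and none lower in treated than in MI rats (5 and 1 under total counts alone in both comparisons), beside 30.2% higher and 33.6% lower of all genes after MI and 11.6% and 2.01% in the treated comparison. Nfe2l2, encoding NRF2, was 77.4 to 95.1 CPM in Sham rats, 86.6 to 136 CPM in MI rats and 195, 284, 313 and 321 CPM in treated rats. Treated rats lay above all others, while Sham and MI overlapped. Its log2 fold change was 0.38 ± 0.17 SE after MI (edgeR adjusted p = 0.0709), a value that passed in 5 of 10 alternative fits, among them total counts alone (0.95, edgeR adjusted p = 0.000119), and without MI rat 5 (0.48), iCarP+/Light+ rat 1 (0.38) or iCarP+/Light+ rat 5 (0.48), and 1.32 ± 0.17 SE in iCarP+/Light+ against MI (edgeR adjusted p = 0.000216).

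Bach1, the repressor that competes with NRF2, was 8.38 to 13.8 CPM in Sham rats, 11.7 to 25.2 CPM in MI rats and 37.3 to 105 CPM in treated rats. It was higher in treated than in MI rats (log2 fold change 1.88 ± 0.30 SE, edgeR adjusted p = 0.00079). Its rise after MI (0.84 ± 0.30 SE, edgeR adjusted p = 0.026) was lost when MI rat 1 or 5 or Sham rat 1 or 2 was left out (edgeR adjusted p = 0.0519 to 0.075, log2 fold changes 0.70 to 0.80), and with limma-voom (0.82, adjusted p = 0.0681), and was 1.43 under total counts alone. Maff, a small MAF partner, rose after MI (0.90 ± 0.18 SE, edgeR adjusted p = 0.00084; 1.48 under total counts alone) and was again higher in treated rats (1.68 ± 0.18 SE, edgeR adjusted p = 5.58e-05). Keap1 fell after MI (-0.51 ± 0.11 SE, edgeR adjusted p = 0.00126), a value that was 0.06 under total counts alone, and was -0.17 ± 0.11 SE in iCarP+/Light+ against MI (edgeR adjusted p = 0.396), which under total counts alone became -0.43 (edgeR adjusted p = 0.0161). Nfe2l1, a related factor of the same family, fell after MI (-1.20 ± 0.18 SE, edgeR adjusted p = 6.19e-05; -0.62 under total counts alone).

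Glutathione supply included Slc7a11, which encodes the cystine transporter of system xc-. It had 4, 3, 2 and 1 counts in Sham rats 1, 2, 3 and 5, near the limit of what these libraries can show, against 239, 87, 125 and 144 counts in MI rats and 869, 1268, 1412 and 1243 counts in treated rats. In CPM this was 4.69 to 11.4 in MI rats and 54.4 to 95.6 in treated rats, a 10.2-fold difference (log2 fold change 3.35 ± 0.26 SE, edgeR adjusted p = 4.4e-06). Glrx, a glutaredoxin counted in this group although it uses glutathione, rose after MI (3.18 ± 0.25 SE, edgeR adjusted p = 3.93e-07) and was again higher in treated rats (1.69 ± 0.24 SE, edgeR adjusted p = 0.000347). Of the 6 genes of this group, among them the glutaredoxins Glrx and Glrx2, 5 were higher after MI and 3 were higher in treated than in MI, with none lower in either (1 lower in treated rats under total counts alone), beside 30.2% and 11.6% of all genes higher in these comparisons.

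Of 12 tested enzymes grouped as using glutathione, 7 were lower and 2 higher after MI, beside 33.6% and 30.2% of all genes, and none passed in edgeR's test of iCarP+/Light+ against MI, where 13.6% of all genes did (1 higher and 1 lower at an unadjusted p below 0.05, and 1 higher with limma-voom), while total counts alone gave 5 of each direction after MI and 2 lower in treated rats. Glrx, which also uses glutathione and was higher in both comparisons, was counted in the supply group and not here. Gstm2, a glutathione transferase, fell from 148 to 214 CPM in Sham to 16.99 to 26.73 CPM in MI (log2 fold change -3.16 ± 0.30 SE, edgeR adjusted p = 1.61e-06), and Mgst3, a membrane-bound relative, fell by 2.42 on the log2 scale (edgeR adjusted p = 1.98e-05).

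Of 11 thioredoxin and peroxiredoxin genes, 3 were higher and 6 lower after MI (30.2% and 33.6% of all genes; 4 of each under total counts alone), and 3 were higher in treated than in MI rats (11.6% of all genes), where total counts alone gave none higher and 2 lower, and none passed without iCarP+/Light+ rat 5. Prdx5, a peroxiredoxin found in several compartments, rose after MI (2.31 ± 0.21 SE, edgeR adjusted p = 1.16e-06), whereas Prdx3, the mitochondrial peroxiredoxin, fell (-1.85 ± 0.14 SE, edgeR adjusted p = 3.51e-07). The further differences of Prdx5 (0.78 ± 0.20 SE, edgeR adjusted p = 0.0205) and of Txnip, an inhibitor of thioredoxin (0.71 ± 0.18 SE, edgeR adjusted p = 0.0172), in iCarP+/Light+ against MI were lost in some fits. Prdx5 was lost without MI rat 3 or 5 or iCarP+/Light+ rat 5 (0.53 to 0.74), and Txnip without MI rat 1 or iCarP+/Light+ rat 5 (0.49 to 0.65). Neither passed under total counts alone (0.52 and 0.43) or with the replicate block (0.74 and 0.73), and Prdx5 did not pass in the compared groups only (0.74, edgeR adjusted p = 0.0819).

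NADPH, the electron source of both systems, is made by several routes. Of 6 genes tested in this group, 2 were higher and 3 lower after MI (30.2% and 33.6% of all genes), and 3 of each under total counts alone. The higher ones under TMM, Tkt and Taldo1, belong to the non-oxidative branch of the pentose phosphate pathway, which itself makes no NADPH. Of the others, Me1, Idh2 and Nnt were lower and Idh1 did not pass. Under TMM scaling the largest changes among these 6 were falls of mitochondrial enzymes. Idh2, the mitochondrial NADP-dependent isocitrate dehydrogenase, went from 2154 to 2384 CPM in Sham down to 250 to 414 CPM in MI (log2 fold change -2.80 ± 0.25 SE, edgeR adjusted p = 9.32e-07). Nnt, the transhydrogenase of the inner mitochondrial membrane, went from 1011 to 1414 CPM down to 190 to 292 CPM (-2.30 ± 0.22 SE, edgeR adjusted p = 1.48e-06). Under total counts alone these falls were -2.22 and -1.71, and the order of sizes differed, since the mean CPM of total counts went from 77.6 to 463 for Tkt and from 76.4 to 382 for Taldo1. In iCarP+/Light+ against MI 2 genes were higher, again Taldo1 and Tkt, beside 11.6% of all genes, and 1 was higher and 1 lower under total counts alone. Under TMM, Me1 (0.25), Idh1 (-0.15), Idh2 (-0.12) and Nnt (-0.17) did not pass in this comparison. Taldo1, transaldolase, differed by 0.93 ± 0.20 SE on the log2 scale (edgeR adjusted p = 0.00695), with groups that overlapped, and did not pass with rats of the same number as a block (0.89, edgeR adjusted p = 0.0515). Tkt, transketolase, was 345 to 424 CPM in MI rats and 435 to 782 CPM in treated rats (0.65 ± 0.15 SE, edgeR adjusted p = 0.0125), and did not pass without iCarP+/Light+ rat 5 (0.41, edgeR adjusted p = 0.0673).

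Among 14 other targets and repair enzymes, 4 were higher and 4 lower after MI, near the shares of all genes (30.2% and 33.6%), and 7 and 3 under total counts alone. In treated against MI rats 5 were higher and 1 lower (11.6% and 2.01% of all genes), and 4 and 2 under total counts alone. Hmox1, heme oxygenase 1, went from 21.2 to 36.7 CPM in Sham to 327 to 594 CPM in MI (log2 fold change 4.25 ± 0.32 SE, edgeR adjusted p = 2.89e-07). Ephx1, the microsomal epoxide hydrolase, fell by 3.04 on the log2 scale (edgeR adjusted p = 1.19e-06). In treated rats Hmox1 was 553, 894, 1051 and 1503 CPM, and rat 1 lay within the range of MI rats. The log2 fold change against MI was 1.00 (edgeR adjusted p = 0.0331), given here after its value was seen. In iCarP+/Light+ against MI the genes named by size were Osgin1, an oxidative stress-induced growth inhibitor (2.12 ± 0.32 SE, edgeR adjusted p = 0.000578), and Msrb1, a methionine sulfoxide reductase (1.22 ± 0.25 SE, edgeR adjusted p = 0.0051), whose groups overlapped.

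**Figure D5:**
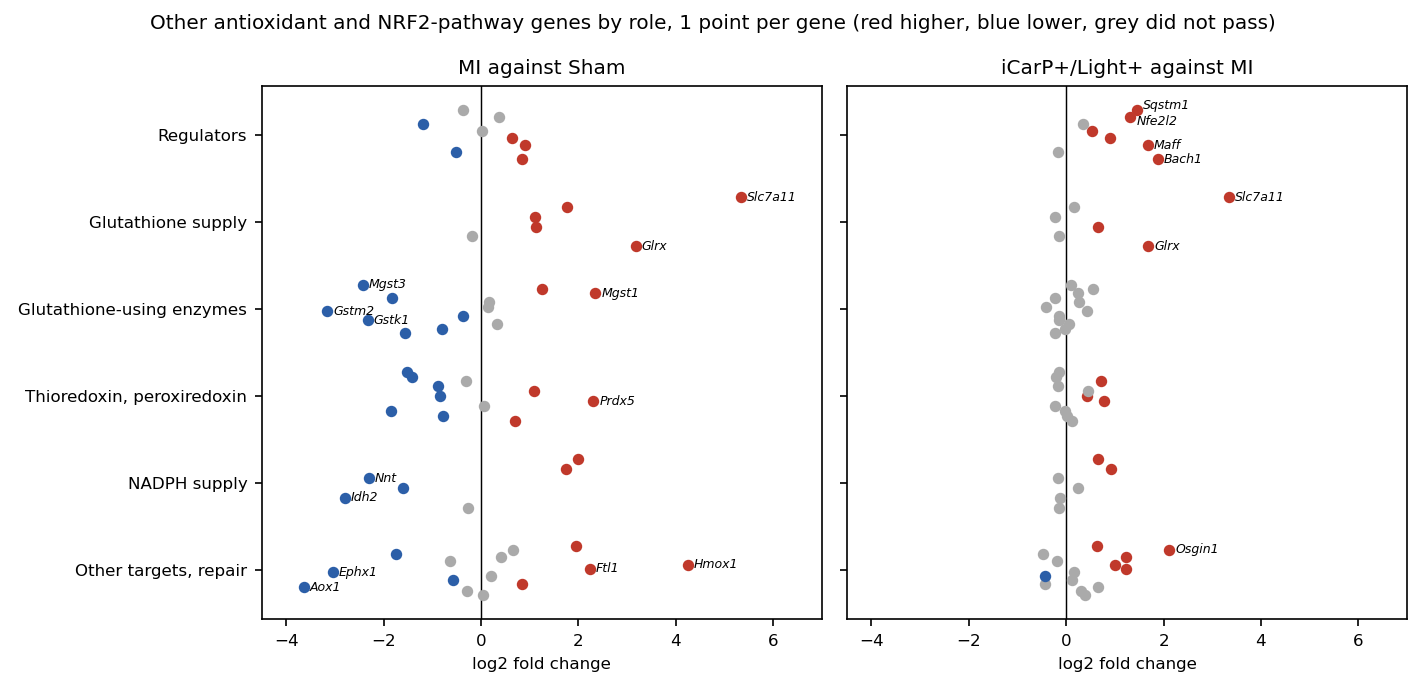
Log2 fold changes of the 57 tested genes of the wider list by role, 1 point per gene, in MI against Sham (left) and iCarP+/Light+ against MI (right), under TMM scaling. Red and blue points passed at an edgeR adjusted p of 0.05. Both directions are present on the left, with 19 higher and 22 lower, and the right panel holds 19 higher and 1 lower (13 and 9 under total counts alone), led by Slc7a11 at 3.35.

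The genes whose pattern was most like that of 3 members were found by the correlation of log2 CPM over the 12 rats among 9274 protein-coding genes with a mean of 10 CPM or more. These are descriptions, since the 12 points share 3 groups and any gene that separates them alike scores high. For Sod2 they were Pnrc1 (Pearson r = 0.988), Kdm3a (0.987) and Ccrl2 (0.986). For Nqo1 they were Gadd45a (0.990), Sypl1 (0.987) and Gpbp1 (0.986). For Cat they were Mapt (0.994), Akap6 (0.993) and Lama2 (0.993).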

How the data were processed

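RNA-seq of LV tissue from 12 rats, 4 per group, was used. The authors deposited raw counts per gene for each rat, with gene symbol, position and length. Per the labels' processing notes, HISAT2, featureCounts and rn6 were used, and versions, strand setting, annotation release and the handling of reads with several matches are not given in the sources used here. Reads without strand or with several matches can blur genes with close copies, and no annotated gene overlapped the 9 members. Total counts were 14064414 to 17136958, and 3 counts, the floor, were 0.175 to 0.213 CPM of total counts, without TMM scaling. This floor covers counting error only. Chi-square per gene was 14.1 to 114 over 18 pairs of rats of a group, so no library was a copy.

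The genes and lists were chosen with earlier results of these data known. R 4.3.3 and edgeR 4.0.16 were used with filterByExpr (minimum count 10), TMM and a quasi-likelihood fit of all 12 rats, and SEs were derived from its F statistics. P-values measure the spread between rats, and no sequencing batch is given. Log2 CPM (prior count 2) of 27 gene comparisons and 9 log2 count ratios were compared by two-sided exact permutation tests over 70 arrangements. Srxn1 and its ratio to Nqo1 gave no value. Alternatives were DESeq2 size factors, total counts alone, DESeq2 1.42.0, limma-voom (3.58.1), other filters, no mitochondrial genes, protein-coding genes only, the compared groups only, a replicate block and each rat left out. From the wider list, the 2 largest changes per role and comparison among passing genes with a mean of 5 CPM or more were named, with Nfe2l2, Keap1 and Bach1; 1 gene of this list is not reported here and is left out of its counts. For pattern likeness, the 3 closest genes to Nqo1, Sod2 and Cat were named. Methods were tested on simulated data. Plots were drawn with matplotlib 3.10.9.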

Additional observations from a re-analysis of the deposited data

Results flagged for a closer look

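The ratio of Sod2 to Sod1 counts in MI rat 5 lay apart from the other MI rats. It was 2.23 against 3.12 to 3.32 in the other 3. On the log2 scale its gap to the nearest of them was 0.849 of the range of the group, above Dixon's critical value at the 95% level for 4 samples, but on the ratios themselves the gap was 0.822 of the range, below it. The levels of the 9 genes and the 3 ratios were looked at on the log2 scale in each of the 3 groups, and this was the 1 case of 36 above the limit. Chance alone passes it in about 1 of 20 groups.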

How the results depend on the processing

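The differences of Sod2, Nqo1 and Txnrd1 between iCarP+/Light+ and MI kept their direction and passed in all 10 alternative fits and all 12 fits with a rat left out. Their log2 fold changes over the alternatives were 2.80 to 3.07, 2.15 to 2.43 and 1.05 to 1.33. Scaling by total counts alone left 5 of the 9 genes passing in MI against Sham and 3926 of all genes in iCarP+/Light+ against MI (2051 under TMM). Under it Nqo1 (0.51), Gpx1 (0.05) and Keap1 (0.06) changed sign in MI against Sham, as did the mean log2 CPM of Nqo1 (0.48, exact permutation p = 0.0286) and Gpx1 (0.05), and Sod3 in iCarP+/Light+ against MI (-0.21). The near-zero change of Nqo1 after MI also changed sign with DESeq2 size factors (0.01), DESeq2 (0.01), at least 10 counts in every sample (0.02) and the compared groups only (0.07). That of Sod3 between iCarP+/Light+ and MI did so with DESeq2 (0), limma-voom (-0.12) and at least 10 counts in every sample (-0.01). With a rat left out the ranges were -0.26 to 0.04 for Nqo1 in MI against Sham, and, in iCarP+/Light+ against MI, -0.32 to 0.25 for Sod3, -0.15 to 0.07 for Cat, -0.15 to 0.05 for Sod1 and -0.23 to 0.01 for Gclc. The fall of Sod2 after MI did not pass with DESeq2 size factors (-0.53), no filter beyond 1 count (-0.57) or at least 10 counts in every sample (-0.52). Gclm in iCarP+/Light+ against Sham did not pass under total counts (-0.02) or without iCarP+/Light+ rat 1 (-0.24), Sham rat 2 (-0.31) or Sham rat 3 (-0.30). Rats that share a number are different animals and did not deviate together (correlations of -0.15 to 0.065 over 9 pairs). A replicate block gave 1298 passing genes in iCarP+/Light+ against MI, a Sod3 value of -0.16, no lost call among the 9 genes, and 13 higher and 0 lower of the 57 pathway genes (20 pass without the block, and 13 to 20 with a rat left out). Under the block the calls of Prdx5 (0.74), Txnip (0.73), Taldo1 (0.89) and Tkt (0.60) were lost. Tkt also did not pass under total counts (0.38) or in the compared groups only (0.61). The cause of these changes was not tested. Between iCarP+/Light+ and MI, the exact permutation p of the Gclm to Gclc ratio was 0.0571 without MI rat 1, 3 or 5 (differences 0.31 to 0.37), and that of Txnrd1 to Cat was 0.0571 without any 1 MI rat (1.23 to 1.43), so the sizes of both were kept.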
